A study of Mus musculus with 9 samples.

Results

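The mRNAs described here are the nuclear-encoded subunits of oxidative phosphorylation, the mitochondrial system that makes most of a cell's ATP. They were chosen by gene symbol: Nduf followed by the letter a, b, c, s or v and a number, Sdha to Sdhd, Uqcr, Cox4 to Cox8, and Atp5, leaving out symbols that contain -ps (this removed Atp5l2-ps). The rule finds 80 of the 16867 genes in the table, of which 36 belong to complex I, 4 to complex II, 8 to complex III, 15 to complex IV and 17 to complex V. All 80 had a normalized count of at least 10 in at least 4 libraries, the filter used for every test, which 16764 genes passed.

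The libraries are poly(A) RNA from glomeruli, the filtering units of the kidney, isolated from male C57BL/6 mice by perfusion with magnetic beads, 1 library per animal. The Cosmc KO group (n = 4) carried Podo-Cre, a Cre transgene active in podocytes, with a floxed allele of the X-linked gene Cosmc (genotype Podo-Cre; Cosmc Y/flox), at 35, 34, 31 and 30 days of age in replicates 1 to 4. The control group (n = 5) was mixed: controls 1, 4 and 5 (35, 30 and 30 days) were Podo-Cre; Cosmc Y/+, control 2 (34 days) was Cosmc Y/flox without Cre, and control 3 (31 days) was Cosmc Y/+ without Cre. The deletion is therefore directed to podocytes, though which cells lost Cosmc was not measured here. Each library also holds endothelial, mesangial, parietal and tubular RNA.

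Values are read counts normalized by the authors to library size, given as mean ± SD. A log2 fold change is the mean log2(value + 1) of Cosmc KO less that of the controls, ± SE, and was tested with limma with p-values adjusted over all genes. The libraries held 31.5 to 58.1 M reads. Cosmc is listed as C1galt1c1, which fell from 1468 ± 69.7 to 961 ± 159 normalized counts (log2 fold change -0.63, limma adjusted p = 0.0111), and its groups did not overlap. The podocyte gene Podxl, which encodes the surface sialomucin podocalyxin, was abundant in every library (155105 to 544549). Proximal tubule transcripts were present in every library too. The proximal tubule score, the mean log2(value + 1) of 37 marker genes, was 9.08 in control 1, 10.72 in control 2, 10.80 in control 3, 10.09 in control 4 and 8.63 in control 5, against 9.47, 12.04, 12.01 and 11.11 in Cosmc KO 1 to 4. None of the 37 markers was at 0 in any library. The podocyte score (29 genes) ran from 14.46 to 14.98 in controls and was 14.44, 13.16, 13.67 and 13.98 in Cosmc KO 1 to 4. With rising proximal tubule score 21 of those 29 podocyte genes fell, against 3.36% of all genes. Between the groups 14 of the 29 fell and none rose, against 3.58% lower and 4.16% higher over all genes. Among the other marker lists, 2 rose and 1 fell of 20 endothelial genes, 5 rose and 1 fell of 9 parietal genes, and 5 rose of 14 macrophage genes. None of 37 proximal tubule and 7 red blood cell genes passed, at medians of 1.34 and -1.40, and 1 of 26 distal nephron genes fell. Leaving out Cosmc KO 1 gave 28 proximal tubule genes higher and 24 podocyte genes lower in Cosmc KO. In that fit 14.4% of all genes were higher and 14.6% lower. Leaving out any 1 other library gave 0 and 1 to 9, with 2.84 to 4.97% of all genes called. In bulk tissue, fewer cells of a type and less RNA per cell cannot be told apart.

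Oxidative phosphorylation runs on the inner mitochondrial membrane. Complex I takes electrons from NADH and complex II from succinate, complexes III and IV pass them on to oxygen, and complex V (ATP synthase) uses the proton gradient that complexes I, III and IV build. Most subunits are encoded in the nucleus and imported, and the remaining ones are made inside the mitochondrion from its own DNA, except that complex II is wholly nuclear-encoded. The proximal tubule, which reabsorbs most of the filtrate, is among the most mitochondria-rich epithelia of the body.

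Per length of transcript, complex V and complex III members had the highest levels and complex I members the lowest. The median mean level, in normalized counts per kb of the longest principal transcript, was 3652 in complex I, 4602 in complex II, 7543 in complex III, 6924 in complex IV and 7923 in complex V. Atp5b, the catalytic beta subunit of ATP synthase (chromosome 10, 128083273 to 128090391, plus strand, GRCm38), was the most abundant member at 31842 per kb. It was followed by Cox6a1 (23927 per kb), a regulatory subunit of cytochrome c oxidase, and Cox4i1 (21975 per kb), the common form of its subunit 4. The lowest members were Cox6a2 (46.8 per kb), Atp5s (149 per kb) and Cox4i2 (230 per kb). Lengths could be assigned to 78 members, not to Atp5o and Atp5sl. The 78 lie on 19 chromosomes, 3 of them on X and 2 on chromosome 18.

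Within this system the symbols do not all mean the same role. Ndufa4 was first counted with complex I and is now known as a complex IV subunit. Cox7a2l is known for a role in joining complexes III and IV into supercomplexes, which was not measured in these mice. Atp5s (coupling factor B) and Atp5sl are not core subunits of ATP synthase. They are kept here because the rule selects them.

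Promoters from 250 bases before to 50 bases after the annotated start (RefSeq, GRCm38.p6) could be matched to 67 of the 80 members. They are shown as a description of the members, and any part of theirs in the levels measured here was not tested. The letters GCATGCGC, part of the palindrome bound by NRF1, a regulator of respiratory genes, were found on either strand in 10 of 67 member promoters (14.9%), against 3.05% of 27025 promoters and 5.26% of the 12126 that belong to tested genes. AAGATGGCG, a YY1 motif, was found in 8 (11.9%, against 1.64% and 3.08%), and CCGGAAG, an ETS motif, in 16 (23.9%, against 9.93% and 17.8%). TATAAA was found in 5 (7.46%, against 15.7% and 9.48%). These are matches of letters, not sites of measured binding.

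Cox6a1 and Uqcrc1, a core protein of complex III, carry the NRF1 letters on both strands, which overlap to form the palindrome. Atp5b, the most abundant member, and Cox7a2l, which did not follow the others, hold none of the searched letters. Capitals mark motif matches, each sequence is read 5′ to 3′ on the gene's strand, and the windows are chr5:115348909-115349208 (minus), chr9:108936398-108936697 (plus), chr10:128083057-128083356 (plus) and chr17:83514284-83514583 (minus) in that order.
Cox6a1: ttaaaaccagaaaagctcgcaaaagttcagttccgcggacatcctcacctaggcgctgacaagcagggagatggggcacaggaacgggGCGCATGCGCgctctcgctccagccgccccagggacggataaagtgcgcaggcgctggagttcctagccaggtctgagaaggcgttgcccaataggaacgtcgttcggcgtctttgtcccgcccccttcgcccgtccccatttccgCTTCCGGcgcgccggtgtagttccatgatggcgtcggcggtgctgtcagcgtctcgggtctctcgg
Uqcrc1: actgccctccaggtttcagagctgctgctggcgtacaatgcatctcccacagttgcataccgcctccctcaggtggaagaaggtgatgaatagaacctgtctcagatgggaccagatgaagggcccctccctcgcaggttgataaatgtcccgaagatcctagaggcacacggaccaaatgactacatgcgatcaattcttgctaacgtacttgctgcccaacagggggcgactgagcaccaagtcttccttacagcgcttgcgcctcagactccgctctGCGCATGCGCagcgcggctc
Atp5b: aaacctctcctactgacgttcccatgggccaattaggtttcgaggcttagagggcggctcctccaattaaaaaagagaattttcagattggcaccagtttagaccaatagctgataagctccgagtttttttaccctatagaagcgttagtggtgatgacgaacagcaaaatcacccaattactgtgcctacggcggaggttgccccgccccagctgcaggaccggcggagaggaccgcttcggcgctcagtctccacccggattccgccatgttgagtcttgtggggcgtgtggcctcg
Cox7a2l: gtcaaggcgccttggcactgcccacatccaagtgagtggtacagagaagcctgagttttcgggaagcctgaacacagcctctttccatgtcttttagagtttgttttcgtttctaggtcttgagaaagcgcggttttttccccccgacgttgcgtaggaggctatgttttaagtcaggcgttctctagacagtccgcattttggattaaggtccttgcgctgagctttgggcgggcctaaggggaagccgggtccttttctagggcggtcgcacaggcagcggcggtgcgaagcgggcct

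The members moved as a block from library to library. Together they made up 0.951, 1.48, 1.16, 1.13 and 1.08% of all normalized counts in the 5 controls in order and 0.811, 1.66, 1.49 and 1.11% in Cosmc KO 1 to 4. Control 2 and Cosmc KO 2 and 3 were high, Cosmc KO 1 was lowest of the 9, and the groups overlapped. Counted gene by gene, 77 members in control 2, 77 in Cosmc KO 2 and 78 in Cosmc KO 3 lay above the median of the controls, against 0 in Cosmc KO 1, 2 in control 1, 7 in control 5, 15 in control 4, 30 in Cosmc KO 4 and 59 in control 3. As a description over the 9 libraries, the correlation of each member with the mean of the others had a median of 0.966. It was lowest for Cox4i2 (-0.31), Cox7a2l (-0.24), Atp5s (-0.10), Cox6a2 (0.57) and Cox6b2 (0.68).

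**Figure D1:**
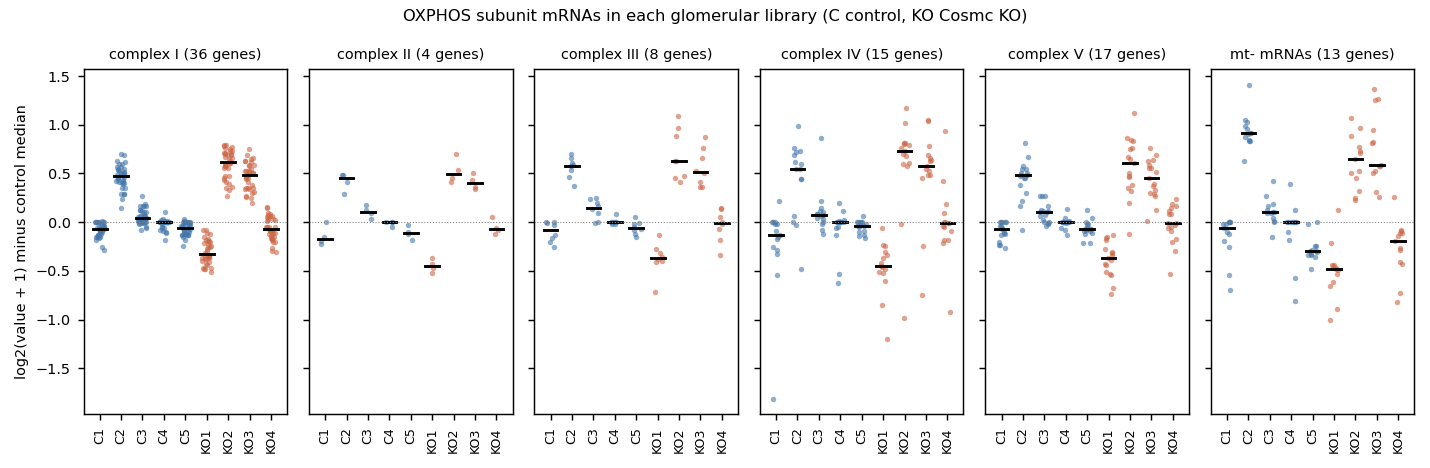
Levels of the nuclear members in each complex and of the 13 mt- mRNAs, as log2(value + 1) minus the gene's median over the controls (y axis), in controls 1 to 5 (C, blue) and Cosmc KO 1 to 4 (KO, orange). Points are genes and black bars are medians; control 2 and Cosmc KO 2 and 3 stand above the other libraries in every panel and Cosmc KO 1 below them.

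Between the groups, 1 of the 80 members differed: Cox4i2 was lower in Cosmc KO (limma on log2(value + 1), Benjamini-Hochberg adjusted p below 0.05 over all genes). Over all genes tested, 7.74% differed, 4.16% higher and 3.58% lower. No member other than Cox4i2 had even an unadjusted p under 0.05, which 27.5% of all genes had. The libraries of the groups did not overlap for 1 member, against 11.9% of all genes (6.11% with Cosmc KO below and 5.83% above). The log2 fold change was above 0 for 68 of 80 members (50.5% of all genes), with a median of 0.10 against 0.0035 over all genes and a range from -0.74 to 0.89. The medians were 0.12 in complex I, 0.08 in complex II, 0.09 in complex III, 0.13 in complex IV and 0.07 in complex V. The authors' deposited table also calls only Cox4i2 among the members, at an adjusted p under 0.05 that 2679 of the 16764 tested genes passed there.

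The small positive median moved with single libraries of both groups. It was -0.05 without Cosmc KO 2 and -0.0084 without Cosmc KO 3, the libraries with the highest and second highest tubule score, and -0.27 without both. On the control side it was 0.21 without control 2 (76 of 80 above 0), 0.06 without control 1 or control 5, and 0.25 against the Cre-carrying controls alone (77 of 80 above 0). It was 0.19 without Cosmc KO 4. Without Cosmc KO 1 it was 0.29 and 3 members were called: Cox4i2 (-0.75), Cox6b2 (0.69, limma adjusted p = 0.0139) and Ndufs7 (0.50, adjusted p = 0.0268), with 29.1% of all genes called in that fit. With the tubule score added to the fit no member was called (4.18% of all genes were, 1.53% lower), 78 of 80 log2 fold changes lay below 0, and their median was -0.26.

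Complex I, as the symbols assign it, is represented by an abundant member and its extremes. The abundant one is Ndufa4, which is now known as a complex IV subunit, as given above. Ndufa4 read 5960.5, 10106, 6677, 6662 and 6282 in controls 1 to 5, against 5111, 10766, 9536 and 6163 in Cosmc KO 1 to 4. The lowest and the highest values were both Cosmc KO libraries, replicates 1 and 2. Its log2 fold change was 0.11 ± 0.23 (SE, limma adjusted p = 0.79). Ndufs6, an accessory subunit of the NADH-oxidizing arm, had the highest fold change of the complex (0.27 ± 0.20, adjusted p = 0.407; 2310.4 ± 478 in controls and 2838 ± 845 in Cosmc KO, SD). Ndufv2, which carries an iron-sulfur cluster of the same arm, had the lowest (-0.10 ± 0.17, adjusted p = 0.723; 4884 ± 997 and 4568 ± 1047). All other complex I members lay between these fold changes.

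Complex II, which is also the tricarboxylic acid cycle enzyme succinate dehydrogenase, had log2 fold changes from -0.03 to 0.11 in its 4 members. Sdha, the flavoprotein that oxidizes succinate, read 14634, 22754, 17434, 16304 and 15923 in controls and 12082, 21636, 20650.5 and 14935 in Cosmc KO. Control 2 was the highest of the 9 libraries and Cosmc KO 1 the lowest. The log2 fold change of Sdha was -0.03 ± 0.19 (limma adjusted p = 0.932), and Sdhb (iron-sulfur subunit) and Sdhc (membrane anchor) had values of 0.11 ± 0.24 and 0.06 ± 0.17.

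In complex III, the core proteins Uqcrc1 and Uqcrc2 had log2 fold changes of 0.13 ± 0.20 and 0.02 ± 0.17. Uqcrc1 read 8105, 10678, 9477, 8249 and 7806 in controls and 6223, 12743, 11861 and 9144 in Cosmc KO, so that Cosmc KO 1 lay below and Cosmc KO 2 and 3 above all controls. Uqcrfs1, the Rieske iron-sulfur protein that hands electrons to cytochrome c1, had the lowest fold change of the complex (-0.07 ± 0.24, limma adjusted p = 0.869), and the small subunit Uqcr10 the highest (0.26 ± 0.29, adjusted p = 0.576).

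Complex V had a flat profile as well. Atp5b read 49655, 77115, 58326, 54251 and 51824 in controls and 40144, 86551, 77345 and 53881 in Cosmc KO. Control 2 and Cosmc KO 2 and 3 were again the high libraries. Its log2 fold change was 0.10 ± 0.24 (limma adjusted p = 0.801), and that of Atp5a1, the alpha subunit that forms the catalytic head with it, was 0.02 ± 0.20 (adjusted p = 0.953). Atp5d, the delta subunit of the central stalk, had the highest value (0.20 ± 0.25) and Atp5l, the membrane subunit g, the lowest (-0.19 ± 0.18).

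Complex IV held the called member and the widest range. Cox4i2 (chromosome 2, 152754173 to 152765037, plus strand) encodes the alternative form of subunit 4, which in mice is known from lung and from oxygen-sensing and vascular cells. It read 259, 158, 238, 154 and 222 in controls 1 to 5, against 123, 112, 131 and 116 in Cosmc KO 1 to 4. Every Cosmc KO library lay below every control, though controls 2 and 4 came close to Cosmc KO 3. It fell from 206 ± 47.8 to 121 ± 8.40 (log2 fold change -0.74 ± 0.19, limma adjusted p = 0.0422), on 951 reads over the controls and 566 over Cosmc KO.

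The Cox4i2 call was near the threshold. It was lost without control 1, 3 or 5 (adjusted p = 0.087, 0.0936 and 0.0965) and without Cosmc KO 2, 3 or 4 (0.116, 0.0987 and 0.0943), and also against the 3 Cre-carrying controls alone (log2 fold change -0.78, adjusted p = 0.11) and with the tubule score as a covariate (-0.64, adjusted p = 0.159). Its log2 fold change stayed between -1.21 and -0.64 in the 24 alternatives, with adjusted p from 0.00183 to 0.651.

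Cox4i2 did not follow tubule RNA, with a slope on the score of -0.08 ± 0.10 (adjusted p = 0.637). Of the 17 mesangial and vascular muscle markers, 5 rose, 1 fell and 11 did not pass, with a median log2 fold change of 0.08. Mcam, Tagln, Serpine2 and Myl9 were among the markers that rose. The score of the list ran from 13.09 to 13.54 in controls and from 13.18 to 13.59 in Cosmc KO, with no marker at 0. The marker that fell was Rgs5, a pericyte gene singled out here after its values were seen (25509, 18028, 17782, 17581 and 20354 in controls, 16910.0, 7554, 8357 and 11161 in Cosmc KO). Its adjusted p was 0.0377, and without any 1 library other than Cosmc KO 1 it was 0.0634 to 0.121 (0.108 against the Cre-carrying controls alone and 0.0900 with the tubule score added). For Ndufa4l2, a relative of Ndufa4 outside the rule and likewise known from pericytes, the log2 fold change was -0.16 ± 0.14 (adjusted p = 0.467). Their part in the Cox4i2 result was not tested.

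Its common counterpart Cox4i1 (chromosome 8, 120668222 to 120674207) read 13756, 19927, 15604, 14679.6 and 13256 in controls and 10499.5, 24964, 22916 and 15697 in Cosmc KO. It followed the other members and not Cox4i2 (log2 fold change 0.20 ± 0.24, limma adjusted p = 0.614). Per length, Cox4i2 made up 1.93, 0.823, 1.57, 1.08 and 1.72% of the pair in controls and 1.20, 0.467, 0.595 and 0.768% in Cosmc KO. The lowest shares were those of Cosmc KO 2 and 3, and Cosmc KO 1 lay within the range of the controls.

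The other pairs of complex IV isoforms did not pass the test. Cox6a2, the heart and skeletal muscle form of subunit 6a, read 6.35, 26.0, 46.1, 15.8 and 24.8 in controls and 15.9, 51.1, 52.0 and 48.2 in Cosmc KO. Cosmc KO 2 to 4 were above all controls and Cosmc KO 1 was not. The log2 fold change of 0.89 ± 0.54 (limma adjusted p = 0.303) rests on 109 and 208 reads in all. Its broad counterpart Cox6a1 had 12327 ± 2248 in controls and 15331 ± 5409 in Cosmc KO (0.25 ± 0.24, adjusted p = 0.509).

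Cox6b2, known as the testis form of subunit 6b, was even across controls (171, 168, 190.2, 165 and 179) and read 145, 275, 355 and 231 in Cosmc KO. Cosmc KO 2 to 4 were above, and Cosmc KO 1 below, every control. The log2 fold change was 0.45 ± 0.23 (limma adjusted p = 0.226), and it passed when Cosmc KO 1 was left out, as given above. Per length it was 2.54 ± 0.436% of the pair with Cox6b1 in controls and 3.14 ± 0.537% in Cosmc KO. Cox7a1, the heart and muscle form of subunit 7a, read 139, 402, 213, 184 and 202 in controls and 87.0, 455, 349 and 174 in Cosmc KO (0.05 ± 0.47, adjusted p = 0.953). It was high in the same libraries as its counterpart Cox7a2, whose log2 fold change was 0.08 ± 0.20.

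**Figure D2:**
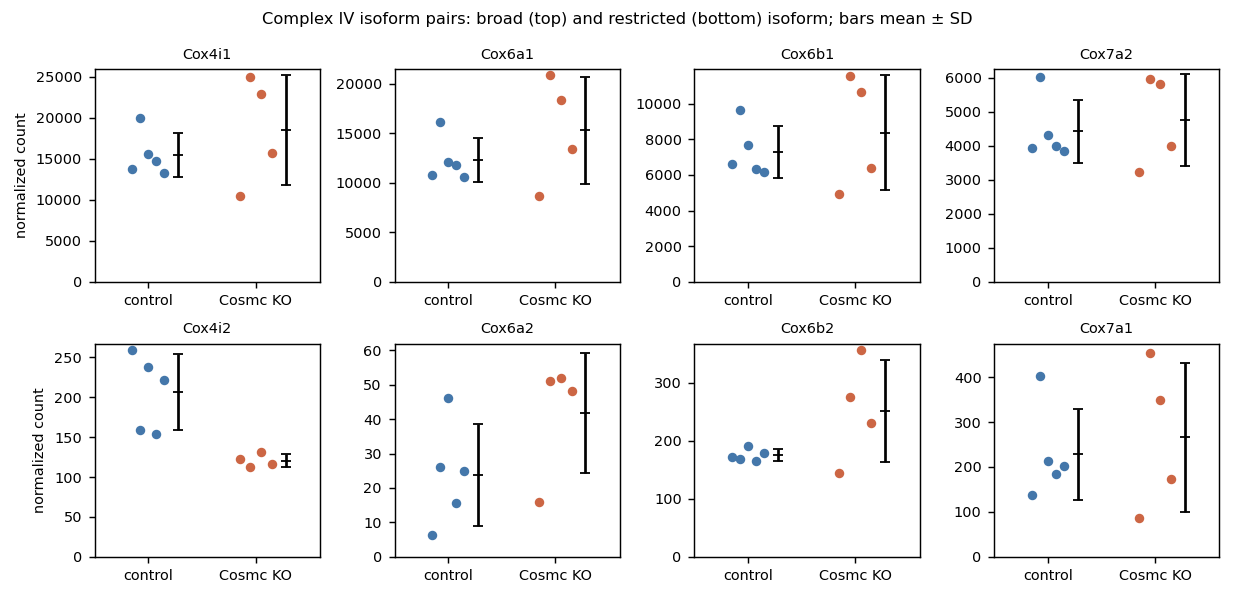
Normalized counts (y axis, from 0) of the broad (top) and restricted (bottom) isoforms of complex IV subunits 4, 6a, 6b and 7a in control (blue) and Cosmc KO (orange) libraries, with mean ± SD beside the points (n = 5 and 4). The Cox4i2 points of the 2 groups do not overlap, 131 or less in Cosmc KO against 154 or more in controls, whereas the other panels overlap.

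The members followed the proximal tubule score at fixed group. In the limma fit with group and score, 59 of 80 rose with the score and none fell (adjusted p below 0.05), against 10.5% of all genes rising and 3.36% falling. The slope was above 0 for 78 of 80 members. Its median was 0.27 log2 units per unit of score, against -0.02 over all genes. By complex, 26 of 36, 4 of 4, 7 of 8, 10 of 15 and 12 of 17 members of complexes I to V rose. Distal nephron markers also rose with the proximal score, 21 of 26, so the score does not separate segments of the tubule.

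Examples span all complexes, as the symbols assign them. The slope was 0.30 ± 0.08 for Ndufa4 (limma adjusted p = 0.0233), 0.35 ± 0.06 for Sdhb (0.00409), 0.35 ± 0.06 for Uqcrfs1 (0.00228), 0.34 ± 0.07 for Cox4i1 (0.00716) and 0.30 ± 0.08 for Atp5b (0.0241). The steepest called slope was that of Cox7a1 (0.62 ± 0.14, adjusted p = 0.0164). Among the c-ring genes, which encode the same mature protein with different import sequences, Atp5g1 (0.42 ± 0.07) and Atp5g3 (0.38 ± 0.07) were called and Atp5g2 (0.12 ± 0.04, adjusted p = 0.104) was not. Atp5g2 made up 15.5 and 16.9% of the 3 transcripts per length in Cosmc KO 2 and 3 and 25.4% in Cosmc KO 1, with controls from 16.9 to 23.4%. The lengths used were 4715 bases for Atp5g1, 731 for Atp5g2 and 723 for Atp5g3, so the size of these shares depends on the transcript chosen.

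A few members stood apart, and are named after their values were seen. Cox7a2l (chromosome 17, 83501918 to 83517330) read 4679.5, 4689, 4412, 4729 and 4553 in controls and 4474, 4603, 3946 and 4406 in Cosmc KO. The values were nearly level across libraries, control 2 and Cosmc KO 2 included, and the slope was -0.02 ± 0.04 (limma adjusted p = 0.794). Atp5s read 221, 227, 240.3, 247 and 248 in controls and 216, 221, 243 and 284 in Cosmc KO, with a slope of 0.02 ± 0.07 (adjusted p = 0.906).

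The count of 59 changed with the libraries used. Without Cosmc KO 1, the Cosmc KO library with little tubule RNA, no member was called (lowest adjusted p = 0.0892, 0 called by edgeR), against 2.95% of all genes rising. In that fit the median slope was 0.24, against -0.01 over all genes, and 77 of 80 slopes were above 0. The remaining Cosmc KO scores (11.11 to 12.04) all lie above those of the controls (up to 10.80). The count was 37 without control 2, 29 without Cosmc KO 2 and 28 without Cosmc KO 3, at median slopes of 0.24, 0.24 and 0.25. In those fits 10.4, 8.64 and 9.07% of all genes were called in either direction. Without both Cosmc KO 2 and 3 the count of members was 0, at a median of 0.17, with 2.92% of all genes called. With the replicate number as a block 2 members and 1.75% of all genes were called, while the members' median slope was 0.56 and 76 of 80 were above 0.

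**Figure D3:**
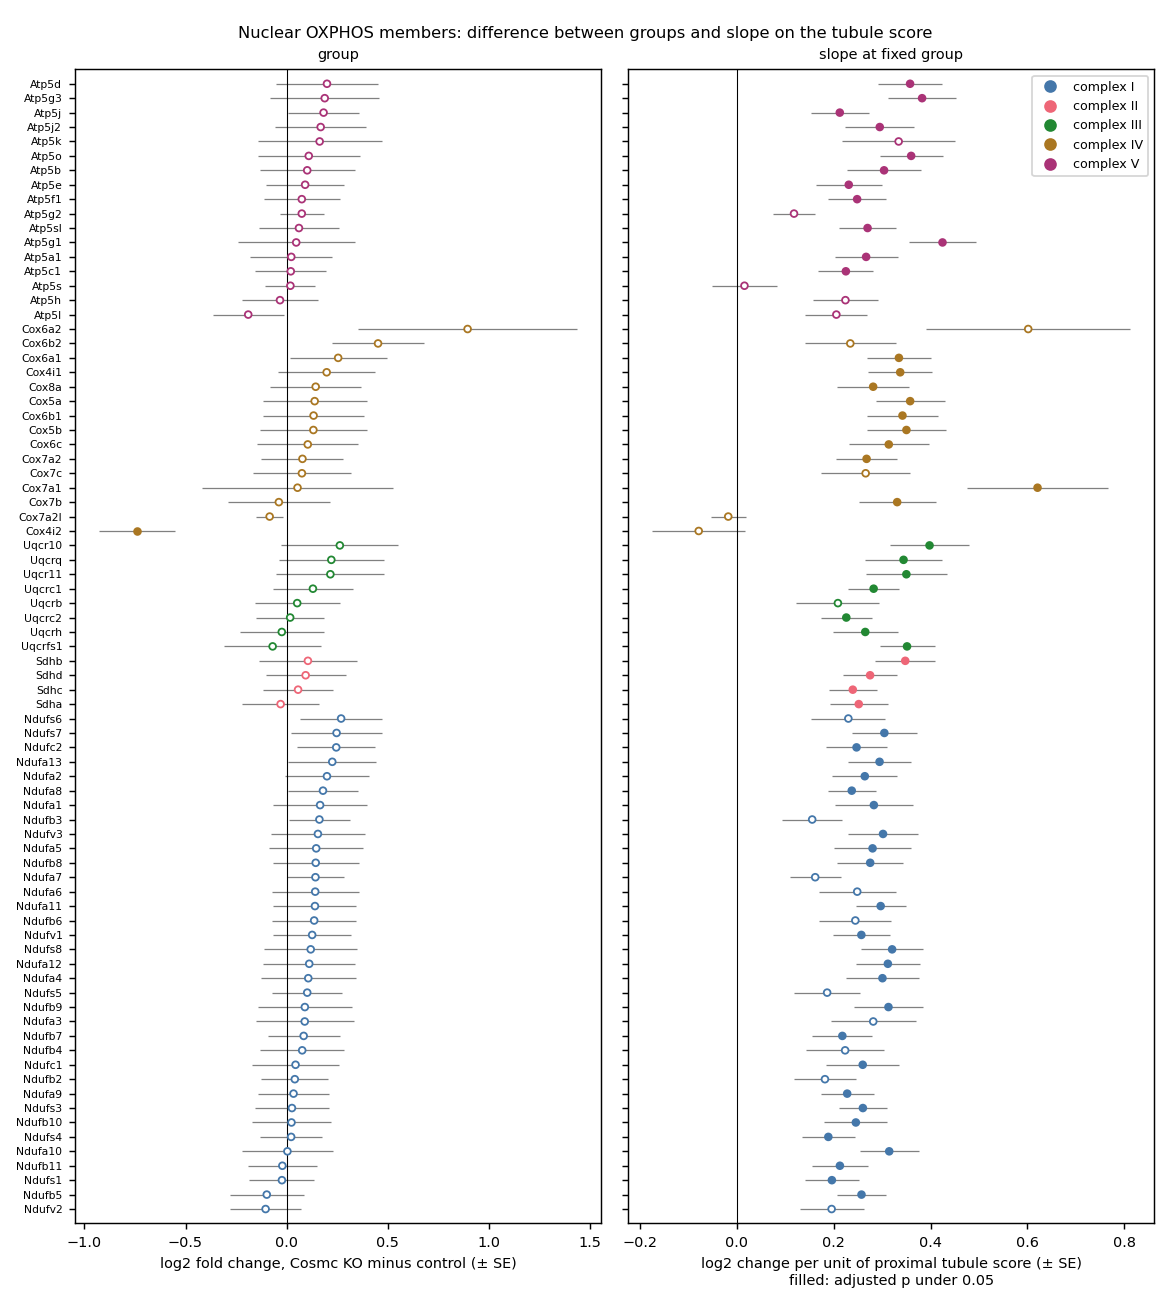
Log2 fold change of 79 nuclear members between Cosmc KO and control (left) and their log2 change per unit of proximal tubule score at fixed group (right), with ± SE bars, coloured by complex; filled points passed an adjusted p of 0.05. On the left only Cox4i2 is filled, and on the right 58 of the 79 members are filled and lie above 0.

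The score did not order the libraries fully. Controls 2 and 3 had nearly equal proximal scores (10.72 and 10.80), but the mean log2 level of the members was 12.28 in control 2 and 11.90 in control 3. The distal nephron score (26 genes) was 11.88 in control 2 and 11.08 in control 3. Cosmc KO 4 had a higher proximal score (11.11) than either and a lower member mean (11.77). Cosmc KO 1, with a proximal score of 9.47, had the lowest member mean (11.45) and the lowest distal score (9.52), below control 5 (11.75) with the lowest proximal score (8.63).

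**Figure D4:**
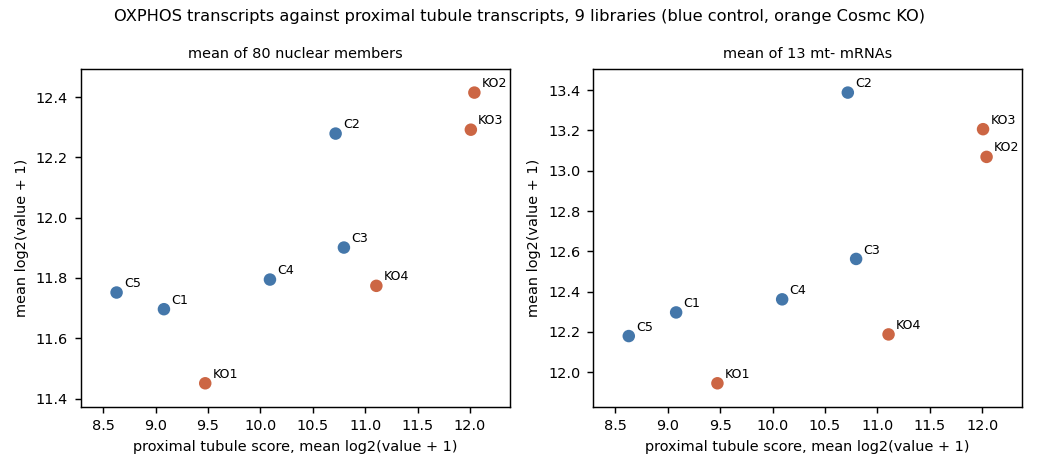
Mean log2(value + 1) of the 80 nuclear members (left) and the 13 mt- mRNAs (right) on the y axis against the proximal tubule score (x axis), 1 point per library (blue control, orange Cosmc KO). The highest member means are those of Cosmc KO 2 and 3 and control 2 (12.42, 12.29 and 12.28), and control 2 has the highest mt- mean.

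The mitochondrially encoded mRNAs, which supply the remaining subunits of complexes I, III, IV and V, moved with the nuclear members. They made up 2.66, 5.57, 3.34, 3.23 and 2.68% of all counts in controls and 2.13, 4.38, 4.38 and 2.96% in Cosmc KO. Control 2 was the highest and Cosmc KO 1 the lowest of the 9. The most abundant, mt-Co1 (the catalytic subunit of complex IV), read 443262, 904625, 539193, 506703 and 427662 in controls and 350941, 718074, 731730.0 and 478182 in Cosmc KO. Its log2 fold change was 0.01 ± 0.37 (limma adjusted p = 0.992), and that of mt-Cytb, the complex III cytochrome b, was 0.03 ± 0.34 (adjusted p = 0.961).

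None of the 13 mt- mRNAs differed between the groups by limma, edgeR or DESeq2, and none had an unadjusted p under 0.05 in limma. Their median log2 fold change was 0.03, and it moved with single libraries. It was -0.14 without Cosmc KO 2 and -0.16 without Cosmc KO 3, against 0.24 without Cosmc KO 1 and 0.23 without control 2. It was 0.13 without Cosmc KO 4 and from -0.08 to 0.02 with any other control left out. Against the Cre-carrying controls alone it was 0.31, with all 13 above 0. All 13 slopes on the proximal score were above 0 (median 0.39) and 6 were called, a count that was 0 without Cosmc KO 1 and 1 without control 2, Cosmc KO 2 or Cosmc KO 3, at median slopes of 0.44, 0.31, 0.38 and 0.37. mt-Co2, mt-Co3, mt-Atp6, mt-Atp8, mt-Nd3 and mt-Nd4l had mean counts of only 46.2 to 523. Near-identical nuclear copies such as Gm28437, Gm29216, Gm28661 and Gm10925 had 168 to 188, so the values of those 6 genes are uncertain. Their log2 fold changes ran from -0.07 (mt-Atp8) to 0.35 (mt-Nd4l), and those of the other mt- mRNAs from -0.24 (mt-Nd6) to 0.03 (mt-Nd1). The medians above include these uncertain genes, and mt-Co3 and mt-Atp6 are among the 6 called slopes.

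The ratio of summed nuclear members to summed mt- mRNAs spanned a narrower range than either sum. It was 0.358, 0.266, 0.347, 0.350 and 0.402 in controls 1 to 5, against 0.381, 0.378, 0.340 and 0.375 in Cosmc KO 1 to 4. Control 2 had the lowest ratio and the groups overlapped (0.345 ± 0.0492 and 0.369 ± 0.0193, SD). Scaled to the mt- sum in place of the deposited size factors, no member differed between the groups (median log2 fold change 0.12). The mt- mRNAs themselves rose with the tubule score, and dividing by their sum lowered the median slope of all genes from -0.02 to -0.42. The median slope of the members went from 0.27 to -0.10, with none called, so it remained above that of all genes. Between animals of the same number, the member mean of Cosmc KO minus control was -0.25, 0.14, 0.39 and -0.02 in pairs 1 to 4 and the mt- mean -0.35, -0.32, 0.64 and -0.17. In pair 2 the nuclear and mitochondrial means thus went opposite ways, and the tubule score difference was 0.39, 1.33, 1.21 and 1.02.

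**Figure D5:**
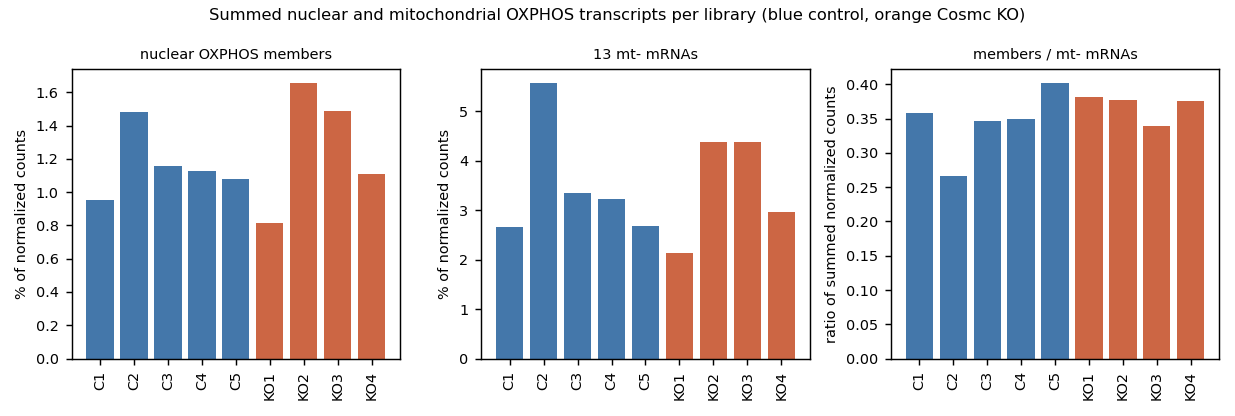
Share of all normalized counts taken by the nuclear members (left) and by the 13 mt- mRNAs (middle), in %, and the ratio of the 2 sums (right), per library (bars from 0; blue control, orange Cosmc KO). Both shares are high in control 2 and Cosmc KO 2 and 3, while the ratio lies between 0.340 and 0.402 in every library but control 2 (0.266).

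Other genes of the respiratory system were read from wider lists. Of 50 assembly factors, which insert cofactors and join subunits but are not part of the finished complexes, 1 fell, none rose, and the median log2 fold change was 0.03. The gene that fell was Uqcc1, which is needed to make cytochrome b for complex III (2669.8, 2793, 2273, 2646 and 2650.2 in controls, 1884, 2074, 2119 and 2120.1 in Cosmc KO). All Cosmc KO libraries were below all controls (-0.34 ± 0.08, limma adjusted p = 0.0288). It passed without control 3 or Cosmc KO 1 (0.0196 and 0.0194), and leaving out any 1 other library gave an adjusted p of 0.0559 to 0.0756. It was also lost against the Cre-carrying controls alone (0.0633), under mt- scaling (1.00), with the tubule score added (0.067), with that score and the replicate block (0.328) and without Cosmc KO 2 and 3 together (0.134), at log2 fold changes from -0.57 to -0.33. Among the 50 assembly factors 8 rose with the tubule score, against 10.5% of all genes, with a median slope of 0.09 beside 0.27 for the subunits. The same share of all genes applies to the slope counts of the lists below.

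Of 19 partners outside the rule none differed. They include Cyc1, cytochrome c1 of complex III (log2 fold change 0.22 ± 0.26), and the ADP/ATP carrier Slc25a5 (0.16 ± 0.25), and 11 of the 19 rose with the score. The list of 24 regulators of mitochondrial biogenesis had 1 gene that rose and none that fell. That gene, Myc, a general growth regulator, read 96.3, 97.0, 108, 114 and 143 in controls and 202, 487, 452 and 278 in Cosmc KO. All Cosmc KO libraries were above all controls (1.58 ± 0.26, limma adjusted p = 0.00745, and at most 0.0309 with any 1 library left out). The call was lost against the Cre-carrying controls alone (1.51, adjusted p = 0.0589), without Cosmc KO 2 and 3 together (1.09, adjusted p = 0.0649) and with the replicate block and tubule score together (0.43, adjusted p = 0.732). The coactivator Ppargc1a and the receptor Esrrg, both known as drivers of respiratory gene transcription, had log2 fold changes of -0.14 ± 0.32 and -0.09 ± 0.36. They rose with the tubule score (slopes 0.46 ± 0.09 and 0.50 ± 0.10). For Nrf1, whose motif is given above, the log2 fold change was -0.21 ± 0.08 (adjusted p = 0.122) and the slope -0.07 ± 0.04.

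Fuel pathways gave few calls between the groups. None of 21 tricarboxylic acid cycle genes differed between the groups and 15 rose with the score, among them Ogdh, a subunit of the oxoglutarate dehydrogenase complex (log2 fold change 0.05 ± 0.16, slope 0.21 ± 0.05). None of 18 fatty acid oxidation genes differed and 11 rose with the score. Of 21 glycolysis genes 1 differed: Hk2, a hexokinase, rose from 57.0 ± 15.9 to 115 ± 26.5 (1.01 ± 0.24, limma adjusted p = 0.0358). Hk2 passed without control 4 or Cosmc KO 1, and leaving out any 1 other library gave an adjusted p of 0.056 to 0.116. It was also lost against the Cre-carrying controls alone (0.78, adjusted p = 0.150), under mt- scaling (1.02, 0.296), with the tubule score added (0.95, 0.115), without Cosmc KO 2 and 3 together (0.73, 0.319) and with edgeR without control 3 (0.93, 0.079). With the replicate block and tubule score together its log2 fold change was -0.06 (adjusted p = 0.981). A further 10 glycolysis genes rose with the tubule score. Without Cosmc KO 1 the slope counts of these lists, and of the assembly, partner and regulator lists, were 0 or 1. In the same setting 1 tricarboxylic acid cycle gene, 6 fatty acid oxidation genes, 7 glycolysis genes and 5 partners were higher in Cosmc KO than in controls, and of the assembly factors 5 were higher and 2 lower. Over all genes of that fit 14.4% were higher and 14.6% lower, so the tricarboxylic acid cycle and assembly factor counts lay below the share of all genes.

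None of 75 mitochondrial ribosome genes and none of 81 cytosolic ribosome genes differed between the groups (median log2 fold changes 0.09 and 0.11). By unadjusted p under 0.05 there were 4 and 10. With the tubule score, 18 mitochondrial ribosome genes and 0 cytosolic ribosome genes rose. Without Cosmc KO 1, 18 mitochondrial and 13 cytosolic ribosome genes were higher in Cosmc KO, and the cytosolic count is near the share of all genes given above for that fit.

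The genes outside the members whose levels were most like the member mean over the 9 libraries, out of 16684 ranked by Pearson correlation, were 2410015M20Rik (0.993), Idh3b (0.993), a subunit of isocitrate dehydrogenase, Slc25a3 (0.993), the mitochondrial phosphate carrier, Mdh1 (0.992), a malate dehydrogenase, and Suclg2 (0.990), a subunit of succinyl-CoA ligase. The correlations share library size scaling and tubule content.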

How the data were processed

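Per the submitters' processing notes, the tools were STAR 2.5.2b, DESeq2, featureCounts and Subread 1.5.2, on the mouse build GRCm38. The annotation release, filters and strandedness are not given in the sources used here, so genes that overlap or have near-identical copies are uncertain. The deposited table holds, per the file headers and the values, a signal per gene and library: read counts the authors scaled by the library's size factor. Its other deposited columns, per the file headers, are the authors' log2 fold change and its error, the Wald score of their test, and p-values before and after adjustment. Of the values, 100% were whole multiples of the library's step to within 0.01, which recovers the reads. On these reads edgeR called 1456 genes between the groups, and 892 without control 3, whose step is too close to 1 to be told from unscaled counts.

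The planned count test needs raw counts and the values are scaled, so limma 3.58.1 (R 4.3.3) was the main test, fitted with a mean-variance trend to log2(value + 1), a scale that understates changes of low genes, for the 16764 genes that reached 10 in at least 4 libraries. A gene was called at a Benjamini-Hochberg adjusted p under 0.05 over all genes. The slope fit adds the proximal tubule score to group. Alternatives were edgeR 4.0.16 and DESeq2 1.42.0 on recovered reads, TMM and mt- scaling, other filters and pseudocounts (0.5 and 4), an age term, the tubule score, Cre-carrying controls only, leaving out each library, and a replicate block. Levels per kb use the longest principal transcript of the GENCODE annotation, and promoters are those of RefSeq. The fits were tested on simulated data. Apart from the planted changes, genes varied independently there, so that test says nothing on variation shared between genes.

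The members, the 17 other gene lists and the tests were chosen with earlier results of these data known. Members named were the 2 most abundant of each complex, those with the highest and lowest fold change, every called member and the complex IV isoform pairs. Of the other lists, up to 4 called genes or the 2 most abundant could be named. Some genes that these rules select are not reported here. Genes named outside these rules were chosen after their values were seen.

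Controls and Cosmc KO share the numbers 1 to 4 and the ages of each number. The correlation of deviations from the group means within numbers 1 to 4 was 0.537, 0.507, 0.34 and 0.271, each above 0.1. The number was therefore fitted as a block among the alternatives, while the main fits are unpaired. Libraries of different numbers were also correlated above 0.1 (control 2 with Cosmc KO 3 at 0.529), so the correlations are not particular to shared numbers. The block leaves out control 5. The labels name separate animals, so p-values measure the spread between them. The closest libraries differed by a chi-square of 25.6 per degree of freedom, so none was counted as a duplicate. No sample column was left unused.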

Additional observations from a re-analysis of the deposited data

Results flagged for a closer look

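Control 2, the floxed control without Cre, stood far above the other controls for many members. Within each group, a library was marked where its gap to the nearest value exceeded Dixon's critical share of the group's range, which chance does in about 1 in 20 groups. Over 160 member groups (80 members in each of control and Cosmc KO) there were 34 such marks, and 33 of them were control 2 as the highest control. Since the members vary together, these marks are not independent of each other.

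Among named genes, the control 2 values were 16177 for Cox6a1, 402 for Cox7a1, 6021 for Cox7a2, 10106 for Ndufa4, 3149 for Ndufs6 and 6643 for Ndufv2. The mitochondrial mRNAs mt-Co1 (904625) and mt-Cytb (458591) and the mt- share of all counts (5.57%, next control 3.34%) were marked in the same library. Its proximal tubule score (10.72) was below that of control 3 (10.80) and its distal nephron score (11.88) was the highest of the 9 libraries. Their part in the high levels was not tested.

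In Cosmc KO, replicate 1 was far below the others for Cox6a2 (15.9 normalized counts against 48.2 or more). Replicate 3 had the lowest ratio of nuclear members to mt- mRNAs (0.340, next 0.375).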

How the results depend on the processing

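The count of 1 member called between groups was also 1 with edgeR, DESeq2, TMM scaling, other filters and pseudocounts and the replicate block. It was 0 under mt- scaling, with Cre-carrying controls only, with age as a term, with the tubule score added, with that score and the replicate block, without Cosmc KO 2 and 3 together, and with edgeR without control 3 (the last 2 chosen after seeing the data). Leaving out 1 library gave 0 to 3. The median log2 fold change of the members was 0.10 and went to -0.26 with the tubule score added, to -0.51 with that score and the replicate block, and to -0.27 without Cosmc KO 2 and 3 together. It was 0.25 against the Cre-carrying controls alone and -0.05 to 0.29 with 1 library left out, the highest without Cosmc KO 1. The cause was not tested. Among 22 named members, the sign of the log2 fold change differed from that reported for 15, 16 and 15 with the score, with the score and block, and without Cosmc KO 2 and 3, for 11 without Cosmc KO 2 and 9 without Cosmc KO 3. It differed for 0 to 3 in each other alternative.

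The count of 59 members rising with the tubule score was 0 under mt- scaling, which lowers the median slope of all genes from -0.02 to -0.42. It was 2 with the replicate block (median slope 0.56 in place of 0.27), 0 without Cosmc KO 2 and 3 together, and 0 to 71 with 1 library left out. Over all genes 1.75%, 2.92% and 3.06 to 20.9% were called in those fits, in either direction. The count of members was 50 to 73 in the remaining alternatives. No mt- mRNA was called between groups in any alternative. The replicate block, which leaves out control 5, called 1 member between groups (Cox4i2, limma adjusted p = 0.0304, median 0.06) and 16.7% of all genes. Leaving out control 5 without the block gave 0 members and 4.02% of all genes, at the same median. The main fit, with control 5 and without the block, called 1 member and 7.74%. Low counts limit Cox6a2 (109 reads over the controls), where only large differences were detectable.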
